A study of Mus musculus with 6 samples.

Results

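The transcripts described here are those of the sensor gene *Zbp1* and of 7 genes that act with it in necroptosis or hold necroptosis back, *Ripk1*, *Ripk3*, *Mlkl*, *Casp8*, *Fadd*, *Cflar*, and *Adar*. They were picked by gene symbol and are 8 of the 26264 genes in the table of normalized counts. All 8 had a mean normalized count of at least 10 and so are among the 17404 genes tested. Necroptosis is a lytic form of regulated cell death in which the kinase RIPK3 phosphorylates MLKL, which then disrupts the plasma membrane. ZBP1 recognizes nucleic acids in the Z conformation and passes the signal to RIPK3 through an interaction motif that RIPK1 also carries, whereas ADAR1 edits double-stranded RNA and limits the activation of ZBP1. Caspase-8, FADD, and c-FLIP form a complex that restrains RIPK1 and RIPK3, and loss of RIPK1 from hematopoietic cells is known to cause bone marrow failure in mice.

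Bulk RNA-seq was performed on hematopoietic stem cells (HSCs) sorted from the bone marrow of untreated female mice at 8 weeks of age, with 3 WT mice (C57Bl/6) and 3 mice that lack IRF1 in the whole body (*Irf1-/-*, B6.129S2-Irf1 tm1Mak/J). IRF1 is a transcription factor of the interferon response, and the comparison asks how its absence alters HSC transcripts. Because the allele is carried by every tissue, effects within HSCs and effects of an IRF1-deficient environment cannot be told apart. Libraries are named here by the replicate numbers 2, 3, and 4, and each was made from the HSCs of a single mouse. Between 43138521 and 59658080 reads per library were counted on genes. A normalized count is the number of reads on a gene divided by the size factor of its library.

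*Irf1* itself had normalized counts of 10122, 11120, and 12057.5 in WT replicates 2, 3, and 4 and of 9267, 9524, and 9287 in the *Irf1-/-* replicates. All 3 *Irf1-/-* libraries lay below the 3 WT libraries, but reads on the gene were abundant in both genotypes. The log2 fold change (*Irf1-/-* over WT) was −0.24 (SE 0.088, adjusted *P* = 0.170, limma). The tm1Mak allele leaves part of the transcribed gene in place, and counts over the whole gene do not separate that part from the deleted part. The level of *Irf1* is therefore not a check of the genotype labels.

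Among the sensor, kinase, effector, and brake genes, *Zbp1* fell far below its WT level in *Irf1-/-* HSCs. The values of *Mlkl* were separate in the 2 genotypes without reaching the fold threshold, and those of the other 6 genes overlapped. A gene was called when its adjusted *P* in limma was under 0.05 and its log2 fold change exceeded 0.58 in size. By this rule 1 of the 8 genes, *Zbp1*, was called lower, where 0.954% of all tested genes were, and 0 of 8 were called higher, where 0.96% of all tested genes were. None of the 8 had an unadjusted *P* under 0.05 in the higher direction in limma, and edgeR and DESeq2 also called 0 higher. With the adjusted *P* alone, 2 of 8 were lower, *Zbp1* and *Mlkl*, beside 1.49% of all tested genes, and 0 were higher, beside 1.73%. These were also the 2 genes for which every *Irf1-/-* library lay below every WT library, which held for 9.27% of all tested genes. The opposite order held for 0 of the 8 and for 10.6% of all tested genes. The median log2 fold change of the 8 genes was −0.062, and that of all tested genes was −0.0028.

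*Zbp1*, which encodes the Z-nucleic acid sensor, had normalized counts of 1263, 1249.8, and 1084 in WT replicates 2, 3, and 4. In the *Irf1-/-* replicates the values were 51.2, 25.1, and 51.9. The WT mice were close to each other, all 3 *Irf1-/-* mice were far below them, and the groups were separated by a wide gap. The lowest WT library was 20.9-fold above the highest *Irf1-/-* library.

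The mean fell from 1199 ± 99.6 to 42.7 ± 15.3 (SD, *n* = 3 per genotype), which was 28.1-fold lower. On the log2 scale *Zbp1* fell by 4.85 (SE 0.28, 95% CI −5.44 to −4.25, adjusted *P* = 1.61e-07, limma), and this was the sixth largest fall, with 5 tested genes showing a larger fall. With 3 mice in each genotype an exact permutation test (two-sided) cannot go below 0.1, and *Zbp1* reached this *P* = 0.1. The transcript was still detected in every *Irf1-/-* library, with 48, 29, and 50 reads, against 1535, 1109, and 1008 reads in WT libraries. The coefficient of variation was 8.30% in WT and 35.8% in *Irf1-/-* HSCs, so the residual level is known less precisely than the WT level. In bulk libraries, fewer cells that express *Zbp1* and less *Zbp1* RNA per cell cannot be told apart.

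Transcripts of other blood cells were examined beside *Zbp1*, because the sensor is also expressed in mature immune cells. HSCs were defined in the study as Lineage-Sca1+cKit+ cells that were CD150+ and CD48-, a gate meant to remove cells that bear mature lineage markers. All 10 HSC markers were detected in every library, and their summed normalized counts were 259301, 267034, and 237182 in WT and 259237, 279837, and 261664 in *Irf1-/-* replicates 2, 3, and 4. *Kit* was the most abundant of them. Of the 10, 1 was called higher, beside 0.96% of all tested genes, and this was *Fgd5* (log2 fold change 0.83, adjusted *P* = 9.13e-05, limma). At an unadjusted *P* under 0.05 in limma, 5 of the 10 were higher and 1 was lower, beside 8.38% and 8.07% of all tested genes. *Procr* (0.52, adjusted *P* = 0.0112) and *Ly6a*, which encodes the sorting marker Sca-1 (−0.43, adjusted *P* = 0.0245), passed the threshold on *P* but not that on the fold change, and neither overlapped between genotypes. Levels of single HSC markers thus differed between genotypes in both directions, with more of them higher than lower. Their part in the difference of *Zbp1* was not tested.

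Of 7 macrophage markers, led by *Cd68*, 0 were called in either direction, and they summed to 2725, 3019, and 2865 in WT and to 3266, 2654, and 3636 in *Irf1-/-* libraries. Of 6 B cell markers, led by *Cd79b*, 5 were tested and 0 were called, with sums of 2772, 3048, and 2667 in WT and 3103, 2873, and 3041 in *Irf1-/-* libraries. Of 8 T and natural killer cell markers, led by *Klrb1c*, 3 had a mean high enough to be tested and 0 were called, with sums of 542, 447, and 594 in WT and 477, 528, and 899 in *Irf1-/-* libraries, and *Gzma* was at 0 in all 6. For these 3 lists, limma gave 0 tested markers an unadjusted *P* under 0.05, and the groups overlapped in each sum.

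Of 8 neutrophil and monocyte markers, led by *Lyz2*, 0 were called and 0 had an unadjusted *P* under 0.05 in limma, with sums of 24378, 32309, and 30394 in WT and 27958, 33581, and 29636 in *Irf1-/-* libraries. Within this list, *S100a8* stood at 1033 in WT replicate 4 against 46.9 and 13.5 in the other WT libraries. *Ly6c2* stood at 808 in WT replicate 3 against 2.47 and 60.2 in the other WT libraries. These libraries were left out singly and not together. The log2 fold change of *Zbp1* came to −4.92 when WT replicate 4 was dropped, and dropping WT replicate 3 instead gave −4.82. The part of neutrophil and monocyte transcripts in the difference of *Zbp1* was not tested.

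The summed levels of the remaining lists differed between genotypes. The 7 dendritic cell markers summed to 3045, 2110, and 3427 in WT and to 3967, 4762, and 3772 in *Irf1-/-* libraries. Of the 7, 1 was called higher, beside 0.96% of all tested genes. It was *Flt3*, the most abundant of them and a receptor also present on early progenitors (0.67, adjusted *P* = 0.0407, limma). The summed level of the other 6 dendritic cell markers overlapped between genotypes, with 388, 379.8, and 563 in WT and 524, 286, and 312 in *Irf1-/-* libraries, and 5 of these 6 had a negative log2 fold change, so that the higher sum rests on *Flt3*. The 5 erythroid markers, led by *Epor*, of which 3 were tested, summed to 3705, 3828, and 2995 in WT and to 2924, 2216, and 2731 in *Irf1-/-* libraries. Of the 3 tested, 1 was called lower, beside 0.954% of all tested genes. It was *Klf1*, an erythroid transcription factor (−0.72, adjusted *P* = 0.0361, limma). The hemoglobin genes *Hba-a1* and *Hbb-bt* were at 0 in all 6 libraries. Both sums were separated by genotype (exact two-sided permutation test, *P* = 0.1 each), and their part in the difference of *Zbp1* was not tested.

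The genes whose pattern over the 6 libraries was most like that of *Zbp1*, by Pearson's r on the log2 scale, were *H2-Aa* (0.998), *Gm4951* (0.998), *Casp12* (0.998), *Gm4841* (0.997), and *Sfrp1* (0.997). The mean of *H2-Aa*, an MHC class II chain, was 2959 ± 593 in WT and 79.7 ± 28.1 in *Irf1-/-* HSCs. *Casp12*, an inflammatory caspase gene, averaged 1873 ± 172 and 341.6 ± 74.1. For each of the 5 genes the libraries fall into separate WT and *Irf1-/-* groups, and the likeness was not tested. The nearest tested genes on either side of *Zbp1* in the gene order of assembly GRCm38.p6 were *Pck1* and *Pmepa1*. The normalized count of *Pck1* was 17.2 ± 4.18 in WT and 49.2 ± 7.96 in *Irf1-/-* HSCs (1.48 on the log2 scale, adjusted *P* = 0.137, limma), and that of *Pmepa1* was 174 ± 34.9 and 179 ± 24.4 (0.051, adjusted *P* = 0.956). Neither neighbor was called, and none of the 8 genes lies on the chromosome of *Irf1*.

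*Adar* encodes the RNA-editing enzyme ADAR1, whose long isoform shares the Z-nucleic acid-binding domain with ZBP1. Its normalized counts were 11244, 11116, and 10055 in WT and 11369, 13096, and 10564 in *Irf1-/-* replicates 2, 3, and 4. The ranges overlapped, and *Irf1-/-* replicate 3 was the highest library. The log2 fold change was 0.11 (95% CI −0.098 to 0.31, adjusted *P* = 0.663, limma). Gene counts do not separate the long isoform from the short isoform. The log2 ratio of *Zbp1* to *Adar* within a library, with 1 added to each normalized count, was −3.15, −3.15, and −3.21 in WT and −7.77, −8.97, and −7.64 in *Irf1-/-* HSCs. This ratio was nearly constant among WT mice and lower in all *Irf1-/-* mice by −4.96 on average (exact two-sided permutation test, *P* = 0.1, adjusted *P* = 0.2 over 2 ratios, 3 mice per genotype).

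*Ripk3*, the kinase that receives the ZBP1 signal, had normalized counts of 7648, 8165, and 6762 in WT and of 6490.0, 7227, and 7035 in *Irf1-/-* HSCs. The groups overlapped, with WT replicate 4 below 2 of the *Irf1-/-* libraries. Its log2 fold change was −0.12 (95% CI −0.32 to 0.082, adjusted *P* = 0.611, limma). *Ripk1*, whose product is both a scaffold for survival signaling and a death-inducing kinase, stood at 8165, 8716, and 7003 in WT and at 8685, 9082, and 8192 in *Irf1-/-* HSCs. Its groups also overlapped, and the lowest library was WT replicate 4. For *Ripk1* the log2 fold change was 0.12 (95% CI −0.082 to 0.33, adjusted *P* = 0.599, limma).

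*Mlkl*, the pore-forming effector of necroptosis, had normalized counts of 2415, 2468, and 2569 in WT replicates 2, 3, and 4 and of 1553, 1866, and 1698 in the *Irf1-/-* replicates. All 3 *Irf1-/-* mice were below all WT mice, and WT mice differed little from each other. The means were 2484 ± 78.1 and 1706 ± 156 (SD, *n* = 3 per genotype), so that the *Irf1-/-* level was 0.687 of the WT level. The log2 fold change of *Mlkl* was −0.55 (SE 0.10, 95% CI −0.77 to −0.32, adjusted *P* = 0.0111, limma), which passes the threshold on *P* and misses that on the fold change, so the gene was not called. Without *Irf1-/-* replicate 3, the highest of its group, *Mlkl* was called (−0.61, adjusted *P* = 0.0131), and without *Irf1-/-* replicate 2, the lowest of its group, it missed the threshold on *P* as well (−0.48, adjusted *P* = 0.0567). Over all alternatives its adjusted *P* ranged from 6.55e-05 to 0.171, the highest in limma without the intensity trend. The interval excludes a fall of the size seen for *Zbp1*.

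*Casp8* encodes the protease that cleaves RIPK1 and RIPK3, and its normalized counts were 7399, 7645, and 6686 in WT and 6728, 7895, and 6915 in *Irf1-/-* HSCs. The groups overlapped over nearly their whole ranges. Its log2 fold change was −0.014 (95% CI −0.21 to 0.19, adjusted *P* = 0.969, limma). *Fadd*, the adaptor that recruits caspase-8, had normalized counts of 774, 810.3, and 659 in WT and 584, 806, and 699.7 in *Irf1-/-* HSCs. Its groups overlapped too, and its interval was the widest of the 7 genes other than *Zbp1* (log2 fold change −0.11, 95% CI −0.44 to 0.23, adjusted *P* = 0.814, limma). Of 19 alternatives, the sign of the small difference turned in 5 for *Casp8* and in 1 for *Fadd*.

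*Cflar* encodes c-FLIP, the partner that sets how caspase-8 acts, and it stood at 3166, 3758, and 3399.5 in WT and at 3686, 3744, and 3552 in *Irf1-/-* HSCs. The *Irf1-/-* values lay within the WT range. For *Cflar* the log2 fold change was 0.093 (95% CI −0.11 to 0.29, adjusted *P* = 0.713, limma), and counts per gene do not separate the long and short forms of c-FLIP. The log2 ratio of *Cflar* to *Casp8* within a library averaged −1.07 ± 0.13 in WT and −0.97 ± 0.10 in *Irf1-/-* HSCs (exact two-sided permutation test, *P* = 0.4, adjusted *P* = 0.4 over 2 ratios, 3 mice per genotype). *Cflar* and *Casp8* lie close together on the same chromosome, and whether strand was used in counting is not stated, so that reads of overlapping or antisense genes cannot be told apart.

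Levels of different genes were compared as normalized counts per kilobase of the longest coding transcript in GENCODE vM1. In WT HSCs the order from the highest level was *Ripk3* (3832), *Casp8* (2802), *Adar* (1829), *Ripk1* (1771), *Mlkl* (1240.2), *Zbp1* (603), *Cflar* (524), and *Fadd* (192). Kinase transcripts and *Casp8* were thus well above the sensor. *Adar* and *Ripk1* overlapped between libraries, as did *Zbp1* and *Cflar*, and the other neighbors in the order did not. In *Irf1-/-* HSCs *Ripk3* (3522), *Casp8* (2777), *Adar* (1976), *Ripk1* (1925), and *Mlkl* (852) came in the same order, again with overlap between *Adar* and *Ripk1*. They were followed by *Cflar* (557), *Fadd* (179), and *Zbp1* (21.5), which moved from rank 6 to rank 8. With the median transcript length of each gene, chosen after the values were seen, *Ripk3* was again first in both genotypes, *Zbp1* was at rank 7 in WT and rank 8 in *Irf1-/-* HSCs, and the ranks of *Mlkl*, *Cflar*, *Casp8*, and *Adar* moved in at least 1 genotype.

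The rest of the pathway was followed in 5 lists of genes that feed into, license, or act beside the ZBP1, RIPK3, and MLKL axis, with 66 genes listed and 65 tested. Of these 65 genes, 1 (1.54%) was called lower and 0 were called higher, beside 0.954% and 0.96% of all tested genes, and 33 had a negative log2 fold change. Their median was −0.0020, close to that of all tested genes. At an unadjusted *P* under 0.05 in limma, 7 were lower and 5 higher, beside 8.07% and 8.38% of all tested genes. Libraries did not overlap between genotypes for 9 genes in each direction (13.8%), beside 9.27% lower and 10.6% higher of all tested genes. edgeR and DESeq2 called 0 of the 65 higher.

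The 1 called gene was *Casp1*, the inflammatory caspase that cleaves gasdermin D and interleukin-1β, in the list of caspases and lytic effectors. Its normalized counts were 2031, 2008, and 2058 in WT and 287, 290.3, and 412 in *Irf1-/-* HSCs. WT mice were nearly identical, and every *Irf1-/-* mouse was far below them. *Casp1* fell by 2.64 on the log2 scale (SE 0.15, adjusted *P* = 1.89e-07, limma). The other 12 genes of the list, which include the executioner caspases and the gasdermins, were not called, and the largest positive value among them was that of *Dedd2* (0.29, 95% CI 0.090 to 0.49, adjusted *P* = 0.118).

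Among 8 genes of nucleic acid sensing other than *Zbp1* and *Adar*, 0 were called and 0 had an unadjusted *P* under 0.05 in limma. The extremes were *Ifih1*, which encodes the RNA sensor MDA5 (−0.14, 95% CI −0.36 to 0.084, adjusted *P* = 0.587), and *Ticam1*, which encodes TRIF, an adaptor that also engages RIPK1 and RIPK3 (0.29, 95% CI −0.019 to 0.60, adjusted *P* = 0.345). Of 9 death receptor inputs, 8 were tested and 0 were called, with 1 gene in each direction at an unadjusted *P* under 0.05. *Tnf* had low counts and the most negative value (−0.97, 95% CI −2.27 to 0.33, adjusted *P* = 0.491, limma), and its receptor *Tnfrsf1a* had the most positive (0.27, 95% CI 0.078 to 0.46, adjusted *P* = 0.130). *Fasl* was not tested, with a mean normalized count of 1.96. The wide interval of *Tnf* leaves both a large fall and a small rise within range.

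The RIPK1 checkpoint list holds 19 ubiquitin ligases, deubiquitinases, kinases, and adaptors that act on RIPK1 and set whether it signals for survival or death. None was called in limma, with 0 lower and 2 higher at an unadjusted *P* under 0.05. *Tnip1*, which encodes the A20-binding protein ABIN1, had counts of 2998, 3176, and 2936 in WT and 4114, 4087, and 4278 in *Irf1-/-* HSCs. These groups did not overlap, and *Tnip1* passed the threshold on *P* but not that on the fold change (0.45, 95% CI 0.27 to 0.64, adjusted *P* = 0.0117, limma). *Chuk*, which encodes an IκB kinase subunit, had the most negative value (−0.25, 95% CI −0.54 to 0.042, adjusted *P* = 0.406).

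Among 17 regulators of RIPK3 and MLKL, which include the HSP90 chaperones, inositol phosphate kinases, and membrane repair factors, 0 were called in limma, with 2 lower and 1 higher at an unadjusted *P* under 0.05. *Rab27b*, a vesicle exocytosis gene, had the most negative value (−0.40, 95% CI −0.64 to −0.16, adjusted *P* = 0.0713), and *Flot1*, a flotillin, the most positive (0.27, 95% CI 0.082 to 0.46, adjusted *P* = 0.122). In both cases the libraries did not overlap between genotypes.

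In the interferon route list of 11 genes, 0 were called higher by limma, edgeR, or DESeq2, where limma called 0.96% of all tested genes higher. At an unadjusted *P* under 0.05 in limma, 4 of the 11 were higher, beside 8.38% of all tested genes. Genes of this list that were lower are not reported here, so these counts do not give the direction of the list. *Ifngr2*, a chain of the interferon-γ receptor, had the most positive value (0.35, 95% CI 0.076 to 0.62, adjusted *P* = 0.172).

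Because IRF1 and related factors bind GAAA repeats, promoter sequences of the 8 genes were searched for such letters in RefSeq windows of assembly GRCm38.p6, which cover 250 bases before and 50 after a gene start. Of the 8 genes, 7 had at least 1 window (10 windows in all), and *Zbp1* had no entry. The letters GAAANNGAAA, on either strand, were found for 2 of the 7 genes, *Ripk1* and *Cflar*, and for 3.99% of all 27025 genes with a window. The shorter GAAANNGAA, which lies within the longer motif, was found for 4 of the 7, also *Ripk3* and *Adar*, and for 9.76% of all genes. The letters TTCNNNGAA, whose fixed bases read the same on both strands, were found for 2 of the 7, *Adar* and *Ripk1*, where 1 match shares bases with the GAAA match, and for 9.55% of all genes. The motifs were chosen after the sequences had been seen. Matches of these 4 genes, none of which was called, are given 5′ to 3′ on the strand of the gene with the matching letters in capitals, the longer motif for *Ripk1* and *Cflar* and the shorter for *Ripk3* and for both matches of *Adar*.
*Ripk1* (chr13:34002861-34002886, plus strand): cgttcccgGAAATCGAAAagcgcgga
*Cflar* (chr1:58711489-58711514, plus strand, motif on the opposite strand): acgtctgcTTTCGGTTTCtgggcgtc
*Ripk3* (chr14:55788827-55788851, minus strand): tcttatttGAAAGGGAAgttgtgaa
*Adar* (chr3:89730468-89730485, plus strand): gGAAAAGGAActtcctca
*Adar* (chr3:89730743-89730767, plus strand): aaggaaacGAAAGTGAActctgggg
The windows of *Mlkl*, *Casp8*, and *Fadd* hold none of the 3 motifs. A match is a description of the sequence, and binding was not measured in these libraries.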

How the data were processed

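The authors sorted HSCs, amplified cDNA with a SMART-Seq v4 kit without molecular identifiers, and used Trim Galore! for trimming, HISAT2 for alignment, and Htseq-count for counting. The submitters' processing notes name the build mm39. Program versions, annotation, and strand setting are not given in the sources used here. The deposited signal is the count of a gene divided by a DESeq2 size factor per library. Dividing by the smallest step of each library gave whole reads for 100% of values (tolerance 0.01). Labels number the replicates in 2 ways, and the numbers 2, 3, and 4 were used. Libraries of a genotype differed by more than counting noise (chi-square per gene 16.0 to 30.0).

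For the genotype comparison, log2(normalized count + 1) was fitted in limma 3.58.1 (R 4.3.3) with lmFit and trended eBayes, a scale which understates changes of low genes, over genes with a mean of at least 10. *P* values were adjusted over all tested genes with the Benjamini-Hochberg method. Single values were compared with exact two-sided permutation tests over 20 arrangements, and edgeR 4.0.16 and DESeq2 1.42.0 on recovered reads were alternatives, as were other pseudocounts, filters, scalings, and thresholds, the replicate number as a block, and each library left out. The tests were tried on simulated data, but the outcome is not reported here and no statement rests on it. The 8 genes and all lists were chosen with earlier results of these data known. Named genes are the 8 genes, *Irf1*, called genes of the pathway lists, the tested genes with the largest rise and fall in each list and any gene not tested, the 5 genes most like *Zbp1*, its nearest tested neighbors, and the most abundant and any called gene of each marker list. *S100a8*, *Ly6c2*, *Procr*, and *Ly6a* were named after their values were seen. A result that the rule covers is not reported here. RIG-I was matched as *Ddx58*. A RefSeq gene table of GRCm38.p6 was used for names and neighbors only.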

Additional observations from a re-analysis of the deposited data

How the results depend on the processing

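*Zbp1* was called lower in all 19 alternatives, with log2 fold changes between −5.09 and −4.51 and adjusted *P* up to 0.0116, the highest in limma without the intensity trend. No alternative called any of the 8 genes higher. The number called lower was 2 with the adjusted *P* alone and 1 to 2 when a library was left out, with *Mlkl* added without *Irf1-/-* replicate 3. The log2 fold change of *Casp8* was 0.023 after quantile normalization and −0.084 to 0.031 when a library was left out, and that of *Fadd* was −0.22 to 0.011 when a library was left out. The cause of these turns was not tested. *Irf1* stayed between −0.31 and −0.18. *Mlkl* was −0.52 without both replicate 4 libraries (adjusted *P* = 0.0514), an alternative chosen after seeing the data.

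Over all tested genes, 166 were called lower and 167 higher. Limma without the trend called 33 lower and 7 higher, the adjusted *P* alone 260 and 301, a fold threshold of 1 gave 84 and 54, edgeR on the recovered reads called 161 lower and 162 higher, and DESeq2 209 and 295. With a library left out, 105 to 265 were called lower, the extremes without WT replicate 3 and without WT replicate 4, and 83 to 304 higher, the extremes without *Irf1-/-* replicate 4 and without WT replicate 4, with 104 without *Irf1-/-* replicate 2 and 102 without WT replicate 3. Quantile normalization and median centring shifted the log2 fold changes of all tested genes by a median of −0.0058 and −0.031. With the replicate block, 196 genes were called lower and 219 higher, and *Zbp1* had an adjusted *P* of 4.47e-06. Deviations of same-numbered libraries correlated at −0.094, 0.25, and 0.15 across genes, and not every library correlated best with its own number, so the numbers were not taken to pair mice. The residual *Zbp1* level rests on 29 to 50 reads per *Irf1-/-* library. The parts of depth and of differences between mice in its spread were not tested. Reads are not independent molecules, and 3 mice per genotype limit every interval.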
